A study of Mus musculus with 24 samples.

Results

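The lineage by day interaction asks whether a gene changed by a different amount during brown than during white adipogenesis. For each gene it is the day 5 minus day 0 change in brown cultures minus the day 5 minus day 0 change in white cultures, on log2 values. A positive interaction marks a gene that rose more, or fell less, in brown cells, and a negative one marks the opposite. It was taken in ribosome protected fragments (RPF, the pieces of mRNA that ribosomes shield from nuclease), in RNA, and in translational efficiency (Eff, the RPF level of a gene over its RNA level). The deposited table holds 22418 genes, and the interaction was computed for the 5035 genes with a value above 0 in all 24 libraries. It uses 16 of those libraries, with 2 for each assay, lineage and day.

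All cells came from C57BL/6 mice. Brown adipocytes were stromal vascular cells of interscapular brown fat at day 5 of differentiation, and brown preadipocytes were the same kind of culture at day 0, confluent and not yet induced. White adipocytes and white preadipocytes were the corresponding cultures from subcutaneous (inguinal) white fat. Both day 5 groups had been induced with insulin, dexamethasone, 3-isobutyl-methylxanthine and rosiglitazone and then kept in insulin, and neither day 0 group had. The stromal vascular fraction is a mixture of cells that adhere and grow, so each culture can hold other cell types beside preadipocytes. In such bulk samples a larger number of cells of a type and more RNA per cell cannot be told apart. Whether the pair of libraries in each group came from separate cultures is not given in the labels. The spread between these libraries may therefore be technical. The p-values rest on the spread within groups, pooled over the culture libraries and the tissue libraries of brown and epididymal white fat. A pool of 3 mice is recorded for 1 RPF and 1 RNA library of white preadipocytes, and nothing on pooling for the other culture libraries.

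Adipogenesis turns fibroblast-like precursors into fat cells. The transcription factors Pparg and Cebpa switch on genes for lipid uptake, storage and hormone secretion, and the collagen-rich matrix of the precursor is reduced. Brown adipocytes differ from white ones in their many mitochondria, whose respiratory chain burns fat to make heat, so the amount by which mitochondrial genes rise is a natural point of contrast between the lineages. The level of an mRNA and the number of ribosomes on it can change separately, which is why the interaction is given in RPF, RNA and Eff side by side. Levels are in RPKM, a read number divided by the kilobases of coding sequence and scaled to the size of the library.

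Depth limited the RPF side of the interaction more than the RNA side. The table scale corresponds to 217395 to 1005948 reads in the RPF libraries of the cultures and 3757578 to 12307820 reads in their RNA libraries. Brown preadipocytes had the shallowest RPF libraries, with a median of 15 and 13 reads per gene and with 29.5% and 34.1% of the genes under 10 reads. The median standard error (SE) of the interaction was 0.37 in RPF, 0.17 in RNA and 0.41 in Eff, on the log2 scale. When the interaction was computed from first replicates alone and from second replicates alone, the values correlated across the 5035 genes at r = 0.64 in RPF, 0.84 in RNA and 0.50 in Eff. The genes share libraries in these correlations and are not independent replicates. The heat-producing uncoupler Ucp1 lacks a value in some libraries and so falls outside the 5035 genes, as do 26 of 30 genes listed as typical of brown adipocytes.

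The lineages departed from each other in a sizeable minority of genes. Limma's test with Benjamini-Hochberg adjustment over the 5035 genes gave an adjusted p under 0.05 to the RPF interaction of 1573 genes (31.2%), with 1005 positive (20%) and 568 negative (11.3%). In RNA 1775 genes passed (35.3%), of which 1086 were positive (21.6%) and 689 negative (13.7%). In Eff 784 passed (15.6%), with 493 positive (9.79%) and 291 negative (5.78%). The interaction exceeded 2-fold in either direction in 1495 genes in RPF, 494 in RNA and 1106 in Eff. The excess of positive genes depended on the scaling of the libraries. The median interaction of all genes was 0.20 in RPF, 0.08 in RNA and 0.08 in Eff, and median-of-ratios scaling moved it to 0.00 in RPF and -0.04 in RNA. With that scaling 708 genes were positive and 718 negative in RPF, 822 and 955 in RNA, and 397 and 335 in Eff, and with quantile scaling the counts were 664 and 651, 912 and 854, and 266 and 273. Values of single genes and lists below are therefore read against the median of all genes. Without the second RNA library of brown adipocytes 720 genes were positive in RNA. Without an RNA library the Eff total was 485 (second, brown preadipocytes), 502 (first, brown adipocytes), 500 (second, white preadipocytes) and 499 (second, white adipocytes), and the negative Eff genes then numbered 155, 166, 166 and 163. They numbered 188 without the first RNA library of brown preadipocytes, 189 without the second of brown adipocytes and 176 without the first of white preadipocytes.

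RPF and RNA interactions came from different days. In RNA the lineages were close at day 0 (SD of the brown minus white difference over genes, 0.29) and apart at day 5 (SD 0.57). In RPF the order was the opposite, with an SD of 0.55 at day 5 and 0.74 at day 0, and Eff followed RPF with 0.53 and 0.76. Over all genes, brown and white cells differed past the test in RPF in 13.7% at day 5 and 37.3% at day 0, in RNA in 51.9% and 3.75%, and in Eff in 7.41% and 33.2%. Of the 1086 genes with a positive RNA interaction, 1017 differed between lineages at day 5 only and 13 at day 0 only. Of the 1005 with a positive RPF interaction, 79 differed at day 5 only, 678 at day 0 only, 143 at both days and 105 at neither. The day 0 difference was the larger of the pair in 816 of the 1005 positive and 341 of the 568 negative RPF genes, and in 436 of 493 and 205 of 291 Eff genes, but in 58 of 1086 and 124 of 689 RNA genes. A positive RPF interaction therefore mostly marks a gene with fewer RPF in brown than in white preadipocytes, and a positive RNA interaction mostly marks a gene with more RNA in brown than in white adipocytes. The brown preadipocyte RPF libraries are also those with the fewest reads, and the part of depth in this contrast was not tested.

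**Figure D1:**
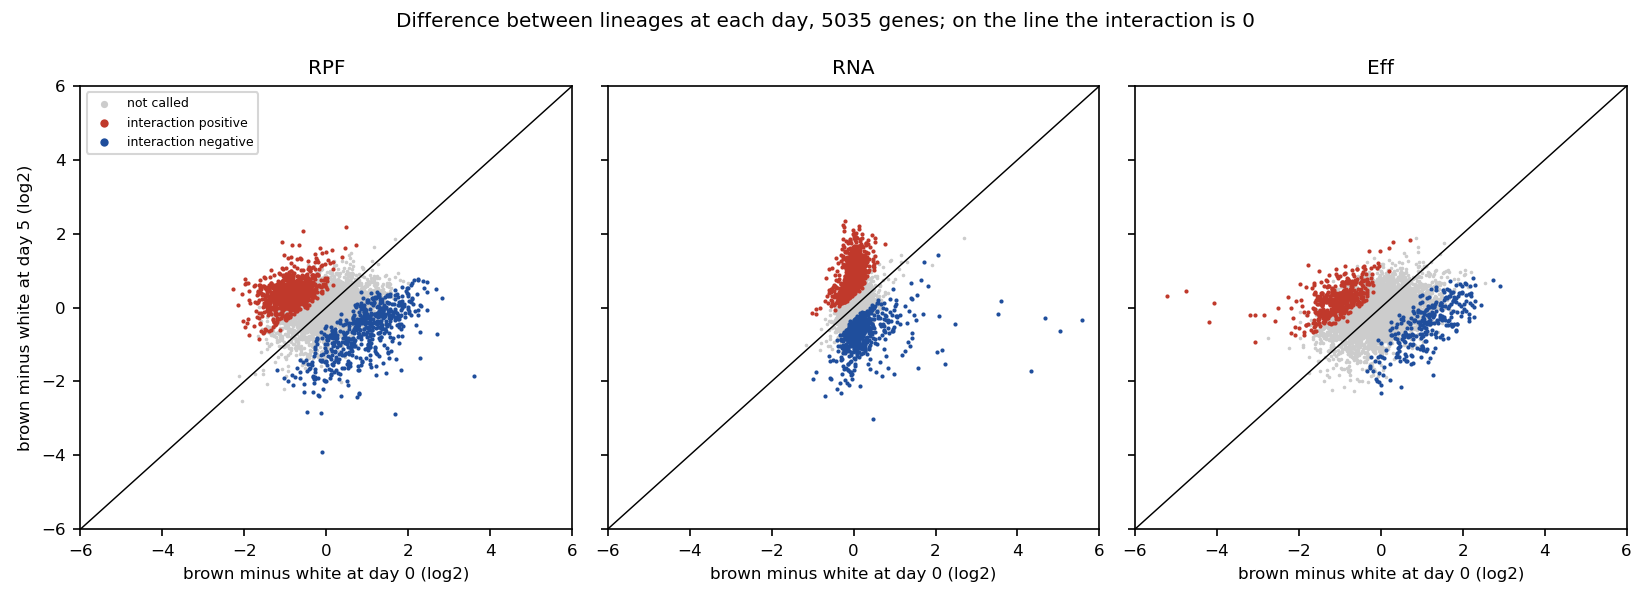
Brown minus white log2 difference at day 5 (y axis) against the same difference at day 0 (x axis) for 5035 genes in RPF, RNA and Eff, with the line of equal difference, where the interaction is 0. Red points have a positive and blue points a negative interaction past the test, and the RNA points form an upright cloud while the RPF and Eff clouds are wider along the day 0 axis (SD 0.74 and 0.76) than along the day 5 axis (SD 0.55 and 0.53).

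Of the 8 most negative RNA interactions, 7 belonged to the genes Cfd, Car3, Plin1, Adipoq, Apoe, Gpd1 and Hp, and the other was that of the matrix gene Lum. Cfd encodes adipsin, a complement protease secreted by adipocytes, Car3 a carbonic anhydrase abundant in fat, Plin1 the perilipin that coats lipid droplets, and Adipoq the hormone adiponectin. Gpd1 makes the glycerol backbone of triglycerides, Apoe carries lipids, and Hp is the secreted plasma protein haptoglobin. All 7 rose in RNA in both lineages, and all 7 rose more in white cells. In each case the larger part of the gap was present before induction, when brown preadipocytes held more of these RNAs than white preadipocytes did.

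The upstream sequences of Cfd, Plin1 and Adipoq are shown because these genes were among the 4 with the most negative RNA interactions and each matched a single RefSeq entry. Each is the 250 bases before the start of the gene in RefSeq's GRCm38.p6 annotation, read 5′ to 3′ on the gene's own strand. They are Cfd (chr10:79890603-79890852, plus strand), Plin1 (chr7:79732777-79733026, minus strand) and Adipoq (chr16:23146286-23146535, plus strand). Capitals mark matches on either strand to the C/EBP core TTNCNNAA or the CCAAT box, the only searched motifs found in them.
Cfd: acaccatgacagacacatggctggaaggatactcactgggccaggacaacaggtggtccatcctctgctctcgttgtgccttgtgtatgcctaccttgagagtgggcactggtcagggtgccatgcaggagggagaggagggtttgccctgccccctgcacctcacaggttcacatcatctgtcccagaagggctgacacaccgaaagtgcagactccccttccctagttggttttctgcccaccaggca
Plin1: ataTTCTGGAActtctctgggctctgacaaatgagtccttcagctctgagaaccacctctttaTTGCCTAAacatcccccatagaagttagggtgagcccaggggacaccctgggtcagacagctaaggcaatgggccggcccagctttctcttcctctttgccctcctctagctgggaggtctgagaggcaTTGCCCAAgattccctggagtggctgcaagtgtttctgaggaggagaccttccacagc
Adipoq: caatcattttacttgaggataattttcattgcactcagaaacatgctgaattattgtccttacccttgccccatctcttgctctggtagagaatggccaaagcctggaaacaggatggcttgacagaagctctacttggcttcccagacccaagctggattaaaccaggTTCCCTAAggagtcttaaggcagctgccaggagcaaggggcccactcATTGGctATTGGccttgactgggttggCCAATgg
The C/EBP core is the letter pattern bound by the family of Cebpa. It occurred 3 times before Plin1, 1 time before Adipoq and not in the Cfd window, and 36.9% of 27025 promoters of this length held it at least 1 time (27.5% of 3770 promoters of genes tested here). CCAAT occurred 3 times before Adipoq and in 34.5% of all promoters. The letters TATAAA (13.0% of all promoters) and AGGTCA, bound by nuclear receptors (13.8%), were in none of the 3 windows. Apoe matched 3 entries with different starts, which are not shown. Of their windows, only that of chr7:19698622-19698871 (minus strand) held a searched motif, with 2 overlapping TATAAA matches on opposite strands. These are letter matches and not measured binding sites.

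Plin1 RNA had 875 and 812 RPKM in brown adipocytes and 13.6 and 11.9 in brown preadipocytes, against 1381 and 1231 in white adipocytes and 0.523 and 0.282 in white preadipocytes. White preadipocytes thus had almost no perilipin RNA, their values standing for 10 and 5 reads. The interaction was -5.68 (SE 0.31, adjusted p = 8.31e-08), composed of a change of 6.05 in brown and 11.73 in white cells. Adipoq RNA had 2551 and 2634 RPKM in brown adipocytes and 43.2 and 49.0 in brown preadipocytes, against 3091 and 3275 in white adipocytes and 2.73 and 1.18 in white preadipocytes. Its groups overlapped at neither day, and the interaction of -4.98 (SE 0.36, adjusted p = 1.55e-06) held a day 5 difference of -0.30 (SE 0.26), which did not pass the test, beside a day 0 difference of 4.68 (SE 0.26). Car3 RNA had 1889 and 2013 RPKM in brown adipocytes and 90.4 and 90.3 in brown preadipocytes, against 2453 and 2437 in white adipocytes and 1.66 and 2.13 in white preadipocytes, an interaction of -5.91 (SE 0.15, adjusted p = 6.29e-11). Cfd was higher in brown than in white preadipocytes and lower in brown than in white adipocytes. It had 429 and 386 RPKM in brown adipocytes and 56.6 and 57.7 in brown preadipocytes, against 1309.6 and 1382 in white adipocytes and 3.02 and 2.70 in white preadipocytes, an interaction of -6.05 (SE 0.22, adjusted p = 3.56e-09), with brown cells above white ones at day 0 by 4.32 and below them at day 5 (-1.72).

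Apoe RNA was likewise higher in brown than in white preadipocytes and lower in brown than in white adipocytes, with 1531 and 1386 RPKM in brown adipocytes and 458 and 465 in brown preadipocytes, against 4351 and 4004 in white adipocytes and 101 and 96.8 in white preadipocytes, and an interaction of -3.74 (SE 0.20). Gpd1 (-3.69, SE 0.14) and Hp (-3.44, SE 0.16) had day 5 levels that did not pass the test between lineages and day 0 levels that did. White preadipocytes had few reads behind several of these RNAs, with 17 and 14 for Gpd1, 25 and 10 for Adipoq, 16 and 19 for Car3 and 29 and 24 for Cfd, so the size of their fold changes is less certain than its direction. Over the 12 tested genes of adipokines and other secreted adipocyte proteins, 8 had a negative and 1 a positive RNA interaction, with a median of -0.81 against 0.08 for all genes. Among 11 lipid droplet and lipolysis genes the RNA counts were 7 negative and 1 positive (median -0.74), and among 20 genes of fatty acid uptake and synthesis 12 negative and 2 positive (median -0.49). Of 14 tested adipogenic regulators, 4 had a negative and 2 a positive RNA interaction, and 8 passed in neither direction (median -0.21). Srebf1 and Cebpa, factors that drive lipogenic and adipocyte genes, were among the negative ones, with -0.54 (SE 0.17) and -1.56 (SE 0.26). Insig1, a brake on sterol synthesis, had an RNA interaction of -0.56 (SE 0.11). In 21 cholesterol synthesis genes 10 were negative and 1 positive (median -0.26). Beside these counts, 13.7% of all genes were negative and 21.6% positive in RNA.

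The master regulator Pparg did not follow this pattern. Its RNA had 364 and 376 RPKM in brown adipocytes and 19.99 and 23.0 in brown preadipocytes, against 196 and 211 in white adipocytes and 14.7 and 14.0 in white preadipocytes, and brown cells were above white cells at both days. The RNA interaction of 0.28 (SE 0.15, adjusted p = 0.157) did not pass the test, the RPF interaction of 0.72 (SE 0.25, adjusted p = 0.0408) passed narrowly, and the Eff interaction was 0.44 (SE 0.29, adjusted p = 0.326). The Pparg RPF call was lost with median-of-ratios (0.52) or quantile scaling (0.48), with the coding length trend removed (0.65), with the culture libraries alone, without the variance trend and in voom on recovered reads (0.66). It was also lost without the second RPF library of brown preadipocytes (0.48), the first of white preadipocytes (0.60) or any of the 4 RPF libraries of adipocytes (0.71 to 0.74). Genes known from brown adipocytes leaned the other way from the adipocyte genes above. Of the 4 that could be tested, all had a positive RNA interaction (median 0.82): Acot2, a mitochondrial thioesterase, with 1.23 (SE 0.15), Letmd1, a mitochondrial protein needed for brown fat, with 0.99 (SE 0.13), Fbxo31 with 0.64 (SE 0.19) and Ebf2, a factor that marks the brown lineage, with 0.63 (SE 0.17). Letmd1 RNA had 195 and 195 RPKM in brown adipocytes and 18.2 and 16.4 in brown preadipocytes, against 115 and 115 in white adipocytes and 21.6 and 19.0 in white preadipocytes, so the brown excess stood at day 5 alone. Acot2 and Letmd1 also passed in RPF, at 1.42 (SE 0.24) and 1.93 (SE 0.29), and for Ebf2 and Fbxo31 the RPF values were -0.37 (SE 0.32) and -0.71 (SE 0.36), short of the test. With 26 of 30 such genes outside the complete set, these 4 are a small sample of the brown program. Of 8 tested genes known from white adipocytes, Cfd and Car3 among them, 5 had a negative and none a positive RNA interaction (median -1.07). The shares of all genes in RNA were 13.7% negative and 21.6% positive.

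**Figure D2:**
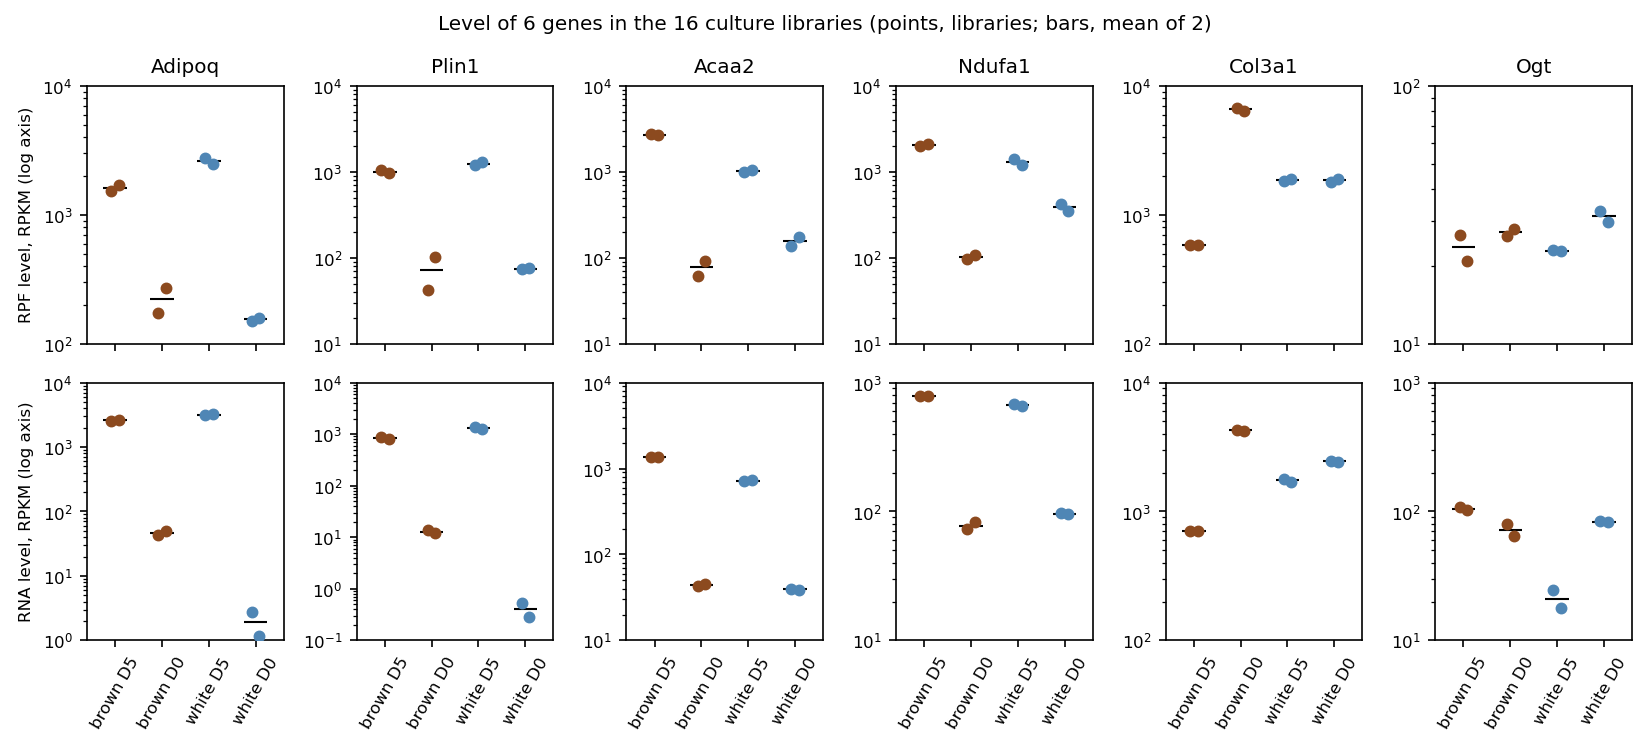
RPF (upper row) and RNA (lower row) levels in RPKM on log axes for Adipoq, Plin1, Acaa2, Ndufa1, Col3a1 and Ogt, with brown and white cells at day 5 and day 0 along the x axis, each point a library and each bar the mean of 2. Adipoq and Plin1 RNA reach their lowest points in white preadipocytes, Ndufa1 and Acaa2 RPF in brown preadipocytes, Col3a1 in brown adipocytes, and Ogt RNA in white adipocytes.

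The 8 most positive RNA interactions belonged to Ogt, Clk1, Zfc3h1, Sfrs18, Esf1, Luc7l3, Cwf19l2 and Prpf4b. Ogt adds O-GlcNAc sugar to nuclear and cytosolic proteins, Clk1 and Prpf4b are kinases of splicing factors, and Luc7l3 belongs to a family of spliceosome proteins. Ogt RNA had 109 and 102 RPKM in brown adipocytes and 79.9 and 64.7 in brown preadipocytes, against 24.5 and 17.7 in white adipocytes and 84.7 and 82.3 in white preadipocytes. The white adipocyte libraries lay alone at the bottom, and the other 3 groups lay close together. The interaction was 2.55 (SE 0.24, adjusted p = 1.57e-05), with a change of 0.55 (SE 0.17) in brown and -2.004 (SE 0.17) in white cells. Clk1 (2.51, SE 0.25), Luc7l3 (2.11, SE 0.22) and Prpf4b (2.01, SE 0.26) had the same arrangement, as had Zfc3h1 (2.40, SE 0.32), Sfrs18 (2.30, SE 0.23), Esf1 (2.13, SE 0.40) and Cwf19l2 (2.07, SE 0.35). All 8 fell in white RNA and differed between lineages at day 5 and not at day 0. The RPF of Ogt did not share it, with 26.5 and 20.9 RPKM in brown adipocytes and 26.3 and 27.8 in brown preadipocytes, against 23.0 and 23.0 in white adipocytes and 32.8 and 29.7 in white preadipocytes, and an interaction of 0.24 (SE 0.31, adjusted p = 0.588). Eff of Ogt accordingly had a negative interaction of -2.31 (SE 0.37, adjusted p = 3.79e-04), and its Eff was 0.225 in brown adipocytes and 0.374 in brown preadipocytes, against 1.09 in white adipocytes and 0.374 in white preadipocytes. Of the 1086 genes with a positive RNA interaction, 79 (7.27%) had a negative one in Eff, near the 5.78% of all genes. These were 27.1% of the negative Eff genes, where 21.6% of all genes were positive in RNA. RNA is the divisor of Eff, so part of this overlap is built in.

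Among the negative Eff genes, Ccnl2, a cyclin that acts in splicing, joined a rise of brown RNA to a fall of brown RPF. Its RPF had 17.6 and 24.3 RPKM in brown adipocytes and 50.4 and 53.2 in brown preadipocytes, against 27.2 and 29.8 in white adipocytes and 26.5 and 22.3 in white preadipocytes, and its RNA 172 and 141 RPKM in brown adipocytes and 93.7 and 77.6 in brown preadipocytes, against 67.8 and 53.4 in white adipocytes and 97.2 and 95.001 in white preadipocytes. The Eff interaction was -3.10 (SE 0.42, adjusted p = 8.88e-05). Leng8 (-2.62, SE 0.60) had it mainly through low RNA in white adipocytes, and Macf1 (-2.57, SE 0.48), a giant linker of actin and microtubules, through high RPF in brown preadipocytes. Scaper (-2.63, SE 0.71) had a mean RPF under 10 RPKM in all 4 groups. Between the extremes, the 1086 positive RNA genes were largely genes that fell less in brown cells: 335 fell in both lineages, 388 fell in white and passed no test in brown cells, 73 rose in brown and fell in white cells, and 158 rose in both.

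In RPF the interaction was positive across most of the machinery of mitochondrial respiration. Of 35 tested subunits of complex I, which feeds electrons from NADH into the chain, 25 were positive and none negative, with a median of 0.89 against 0.20 for all genes. The counts were 4 of 4 for complex II (median 1.15), 9 of 10 for complex III and cytochrome c (0.82), 7 of 11 for cytochrome c oxidase (0.96) and 10 positive and 1 negative of 16 for ATP synthase (0.84). The citric acid cycle had 20 of 21 positive (1.37) and fatty acid oxidation 15 of 17 (1.35), with none negative in either, and the complex II subunits belong to both of the lists for the cycle and for their complex. The median brown minus white RPF difference was 0.38 at day 5 and -0.48 at day 0 for complex I, 0.42 and -0.85 for the citric acid cycle, and 0.48 and -0.88 for fatty acid oxidation, so that brown cells began below and ended above white cells. Mitochondrial ribosomal proteins were closer to the background, with 15 positive and 1 negative of 44 (0.54), or 9 and 1 with median-of-ratios and 6 and 1 with quantile scaling. With quantile scaling 10 complex I subunits were positive and 1 negative (median 0.45), 2 of complex II were positive, 4 were positive and 1 negative for cytochrome c oxidase, and 12 were positive for the citric acid cycle (1.02). RNA had fewer positive genes in these lists. Over all genes 20% were positive in RPF and 21.6% in RNA. In RNA 4 of the 35 complex I subunits were positive, none of the 4 of complex II, 1 of 10 of complex III, 3 of 11 of cytochrome c oxidase and 1 of 16 of ATP synthase, with medians of 0.08 to 0.19, and under median-of-ratios scaling the medians of complexes I and III were -0.02 and -0.04. The citric acid cycle (8 positive and 1 negative, median 0.25) and fatty acid oxidation (8 positive, median 0.21) were above the RNA median of 0.08. The RNA counts depended on the scaling too. With quantile scaling 7 complex I subunits (median 0.23 against 0.00 for all genes), 2 of complex II, as many as in RPF, 4 of ATP synthase and 11 citric acid cycle genes (0.40) were positive in RNA, and with the coding length trend removed 10 of complex I, 6 of cytochrome c oxidase, 1 more than in RPF, and 5 of ATP synthase.

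Ndufa1, a small subunit of complex I, had the largest interaction of that complex. Its RPF had 1980.2 and 2143 RPKM in brown adipocytes and 97.3 and 108 in brown preadipocytes, against 1406 and 1215 in white adipocytes and 425 and 353 in white preadipocytes. The brown preadipocyte libraries were lowest and the brown adipocyte libraries highest, with no overlap between lineages at either day. The RPF interaction was 2.57 (SE 0.17, adjusted p = 1.80e-06), of which the day 5 difference was 0.66 and the day 0 difference -1.92. In RNA it was 0.55 (SE 0.19, adjusted p = 0.0373). The brown preadipocyte values stand for 5 and 5 reads, so their counting error is large. Ndufaf1, which helps assemble complex I, had 254 and 304 RPKM in brown adipocytes and 16.6 and 18.5 in brown preadipocytes, against 151 and 125 in white adipocytes and 44.2 and 46.1 in white preadipocytes, an RPF interaction of 2.38 (SE 0.26, adjusted p = 5.07e-05), an RNA interaction of 0.22 (SE 0.22) that did not pass, and 4 and 4 reads in brown preadipocytes. Acad9, an acyl-CoA dehydrogenase that also assembles complex I, had 1.23 (SE 0.31) in RPF, 0.04 (SE 0.13) in RNA and 1.19 (SE 0.33, adjusted p = 0.0202) in Eff. Acad9 was singled out by the study from these cells, together with a gene written as Ndufa1 in its text and Ndufaf1 in its figure legend. These genes are therefore not independent evidence of the direction.

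Acaa2, the thiolase that closes each round of mitochondrial fatty acid oxidation, differed between lineages at both days in RPF. Its RPF had 2747 and 2704 RPKM in brown adipocytes and 62.2 and 92.5 in brown preadipocytes, against 987 and 1058 in white adipocytes and 138 and 173 in white preadipocytes. The interaction was 2.44 (SE 0.23, adjusted p = 1.79e-05) in RPF and 0.74 (SE 0.11, adjusted p = 3.59e-04) in RNA, and in RNA the lineages differed at day 5 (0.89) but not at day 0 (0.15). Hibch, a valine breakdown enzyme of mitochondria, had 2.63 (SE 0.20) in RPF and 1.12 (SE 0.19) in RNA, with 5 and 4 reads in brown preadipocytes. Acadvl, the dehydrogenase for very long chains, had 1.60 (SE 0.18) in RPF and 0.05 (SE 0.11) in RNA. Sdhb, the iron-sulfur subunit of complex II, had 1.61 (SE 0.17) in RPF and 0.25 (SE 0.11) in RNA. Uqcrc1 of complex III (1.81, SE 0.17), Cox5a of cytochrome c oxidase (1.82, SE 0.19) and Atp5b, the catalytic subunit of ATP synthase (1.33, SE 0.11), were positive in RPF as well, and of these Cox5a passed in RNA (0.55, SE 0.16).

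Glycolysis and the proteasome were also mostly positive in RPF. In glycolysis 14 of 16 genes had a positive RPF interaction and none a negative one (median 1.09), with 6 positive in RNA (median 0.32). With median-of-ratios scaling 3 were positive in RNA and 13 in RPF, and with quantile scaling 8 in RNA and 13 in RPF. Tpi1, the triose phosphate isomerase, had 1948 and 1894 RPKM in brown adipocytes and 339.5 and 322 in brown preadipocytes, against 1352 and 1356 in white adipocytes and 757 and 767 in white preadipocytes, an RPF interaction of 1.71 (SE 0.14, adjusted p = 1.06e-05) and an RNA interaction of 0.08 (SE 0.12). Ldha, which makes lactate, had 1.21 (SE 0.12) in RPF and 0.07 (SE 0.11) in RNA. Of 31 proteasome subunits 21 were positive in RPF and none negative (median 0.95), and 7 were positive in RNA (median 0.25), or 4 with median-of-ratios scaling and 12 with the coding length trend removed. Over all genes 20% were positive in RPF and 21.6% in RNA, so the proteasome share in RNA was near that of all genes. Psmd12, a lid subunit, had 148 and 139 RPKM in brown adipocytes and 42.2 and 53.7 in brown preadipocytes, against 130.2 and 124 in white adipocytes and 120.4 and 135 in white preadipocytes, so only brown preadipocytes stood apart, and its interaction was 1.60 (SE 0.24, adjusted p = 4.12e-04). Psmd14, the lid's deubiquitinating enzyme, rose in brown RPF (0.88) and fell in white RPF (-0.46). Removal of the trend with coding length, chosen after the data were seen, left 16 of 35 complex I subunits, 19 of 21 citric acid cycle genes, 13 of 17 fatty acid oxidation genes, 14 of 16 glycolysis genes and 18 of 31 proteasome subunits positive in RPF.

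**Figure D3:**
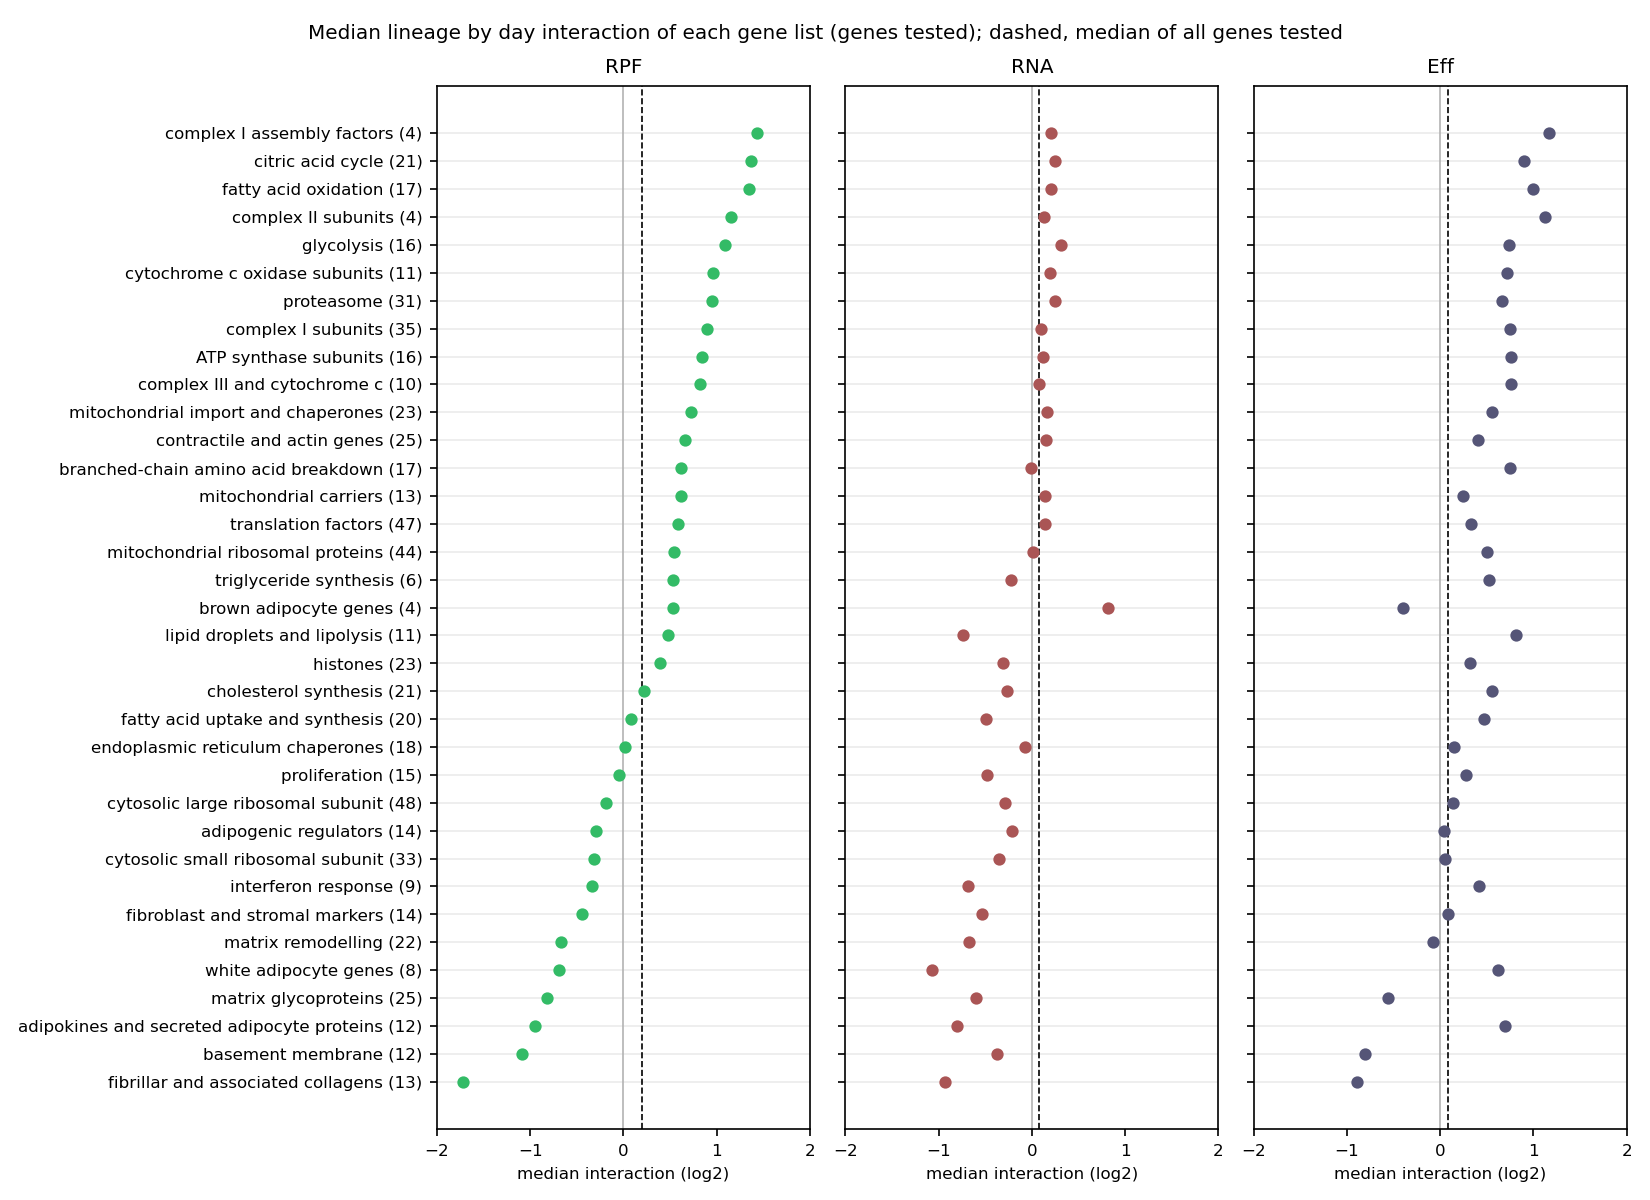
Median interaction (log2, x axis) of each gene list in RPF, RNA and Eff, with the number of genes tested in brackets and the median of all genes as a dashed line. Respiration, citric acid cycle, fatty acid oxidation, glycolysis and proteasome lists lie right of the line in RPF, at 0.82 to 1.44. In RNA these lists lie at 0.08 to 0.32 (glycolysis), where the median of all genes is 0.08. Collagens lie left of the line in all 3 panels (-1.73, -0.93 and -0.90).

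The single genes at the positive end of the RPF interaction were mixed. Ifrd1, a transcriptional coregulator, had 56.4 and 62.6 RPKM in brown adipocytes and 36.7 and 17.0 in brown preadipocytes, against 22.2 and 13.4 in white adipocytes and 57.3 and 48.8 in white preadipocytes. It rose in brown cells and fell in white cells, with an interaction of 2.87 (SE 0.50, adjusted p = 0.00111) in RPF and 1.27 (SE 0.20, adjusted p = 5.63e-04) in RNA. Lgals3, the lectin galectin 3, had 166 and 146 RPKM in brown adipocytes and 26.0 and 69.5 in brown preadipocytes, against 105 and 117 in white adipocytes and 247 and 170.4 in white preadipocytes, and an interaction of 2.76 (SE 0.48, adjusted p = 0.00117), but 0.37 (SE 0.12) in RNA, and its duplicates in brown preadipocytes (5 and 12 reads) were far apart. LOC101056592, which has no annotated role here, had 2.74 (SE 0.35). Spg20 (2.64, SE 0.41), the gene of spartin, also moved in opposite directions. Anxa3, an annexin of membranes, fell in both lineages and fell less in brown cells, with 2.62 (SE 0.48) in RPF and 1.79 (SE 0.21) in RNA. Xrcc6, the Ku70 subunit of DNA end joining, had 2.52 (SE 0.47) in RPF and 1.52 (SE 0.14) in RNA.

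Of all lists, collagens had the most negative median interaction in RPF. Of 13 tested collagens 12 had a negative RPF interaction and none a positive one (median -1.73), and 9 were negative in RNA (median -0.93). Basement membrane genes had 10 negative of 12 in RPF (median -1.09) and 6 in RNA (-0.38), matrix glycoproteins 17 negative and 1 positive of 25 (-0.82) and 14 and 3 in RNA (-0.60), and remodelling enzymes 10 negative of 22 (-0.67) and 16 in RNA (-0.68). Over all genes 11.3% were negative and 20% positive in RPF (median 0.20), and 13.7% and 21.6% in RNA (median 0.08). The median brown minus white RPF difference of collagens was -1.34 at day 5 and 0.62 at day 0, and in RNA it was -1.03 and -0.02, so the larger part lay at day 5. In brown cells the median collagen change was -2.54 in RPF and -2.32 in RNA, against 0.02 and -0.49 in white cells.

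In RPF, Col3a1, the chain of type III collagen, had 584 and 589 RPKM in brown adipocytes and 6746 and 6421 in brown preadipocytes, against 1841 and 1913 in white adipocytes and 1787 and 1914 in white preadipocytes. White cells held about the same level at both days, and brown cells were above them at day 0 and below them at day 5. The RPF interaction was -3.51 (SE 0.12, adjusted p = 1.49e-09) and the RNA interaction -2.10 (SE 0.11, adjusted p = 8.31e-08). Col1a1, a chain of type I collagen, fell in both lineages and fell more in brown cells, with 639 and 659 RPKM in brown adipocytes and 10802 and 11443 in brown preadipocytes, against 1605 and 1687 in white adipocytes and 6718 and 6823 in white preadipocytes, an RPF interaction of -2.06 (SE 0.13) and an RNA interaction of -0.98 (SE 0.19). Col15a1, a collagen of basement membrane zones, fell in brown RPF and rose in white RPF, with 112 and 125 RPKM in brown adipocytes and 213 and 222 in brown preadipocytes, against 317 and 297 in white adipocytes and 71.0 and 79.7 in white preadipocytes, and an interaction of -2.90 (SE 0.22, adjusted p = 3.98e-06). In RNA its rise in white cells (2.28) had no counterpart in brown cells (-0.14, SE 0.08), and the interaction was -2.42 (SE 0.11). Lum, which encodes the collagen-binding proteoglycan lumican, moved in opposite directions in both assays. Lum RNA had 9.44 and 9.17 RPKM in brown adipocytes and 50.1 and 44.9 in brown preadipocytes, against 79.7 and 71.4 in white adipocytes and 32.5 and 35.4 in white preadipocytes, and its interaction was -3.50 (SE 0.23, adjusted p = 4.50e-07) in RNA and -3.81 (SE 0.39, adjusted p = 3.08e-05) in RPF. The larger part of the RNA gap lay at day 5 (-3.02, SE 0.16), and the day 0 difference of 0.48 (SE 0.16) did not pass the test although the 2 brown preadipocyte libraries were above both white ones.

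Hspg2, the basement membrane proteoglycan perlecan (-2.38, SE 0.22), fell in brown RPF while the white change did not pass the test, as did Sned1 (-4.56, SE 0.41) and Kdelc2, a glucosyltransferase of the endoplasmic reticulum (-3.22, SE 0.42), both outside the matrix lists. Mmp2, a gelatinase, fell further in brown cells to the same extent in RPF (-1.96, SE 0.22) and RNA (-1.98, SE 0.12), and Fn1, fibronectin, had -1.32 (SE 0.18) and -0.85 (SE 0.18). Dcn, the proteoglycan decorin, fell in brown and rose in white cells in RPF (-1.30, SE 0.16) and RNA (-1.59, SE 0.18), as did Ltbp4, which binds latent TGF-beta, with -3.17 (SE 0.47) and -1.70 (SE 0.24). Col4a1, a chain of the type IV collagen of basement membranes, rose in RNA in both lineages while its RPF fell in brown and rose in white cells, with -1.52 (SE 0.17) in RPF and -0.45 (SE 0.16) in RNA. Figf, the growth factor VEGF-D, had 122 and 127 RPKM in brown adipocytes and 4528 and 3535 in brown preadipocytes, against 195 and 218 in white adipocytes and 632 and 603 in white preadipocytes, and its RPF interaction of -3.42 (SE 0.24, adjusted p = 1.96e-06) came largely from brown preadipocytes. Gas6, a ligand of the TAM receptors, had -3.65 (SE 0.35) in RPF and -1.85 (SE 0.15) in RNA, also with its highest level in brown preadipocytes.

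Markers of stromal fibroblasts leaned negative as the matrix genes did, but not all of them. Of 23 such markers 14 could be tested, and 6 had a negative and 2 a positive RPF interaction (median -0.44), with 9 and 1 in RNA (median -0.53). The shares of all genes were 11.3% negative and 20% positive in RPF, and 13.7% and 21.6% in RNA. In each assay 5 of the 14 had a value above 0, and the highest was 2.035 in RPF and 1.09 in RNA. In RNA, Pdgfra, the receptor that marks fat progenitors, had 39.9 and 39.9 RPKM in brown adipocytes and 152 and 161 in brown preadipocytes, against 131 and 135 in white adipocytes and 158 and 171 in white preadipocytes, and an interaction of -1.67 (SE 0.25, adjusted p = 5.04e-04). Cxcl12, a chemokine of stromal cells (-1.76, SE 0.12), and Cd248, the pericyte and fibroblast protein endosialin (-0.89, SE 0.18), were negative too. The summed RNA level of the 14 markers was 4983 to 5184 RPKM in brown adipocytes and 8368 to 9041 in brown preadipocytes, against 10046 to 10229 in white adipocytes and 8796 to 9192 in white preadipocytes. In RPF the sums were 5316 to 5604 and 14936 to 17125 RPKM in brown cells, against 10371 to 10714 and 18868 to 19528 in white cells. Their part in the matrix result was not tested. None of 12 endothelial, 15 myogenic or 9 erythroid markers had a value in all libraries. Of 17 macrophage markers the pair Lyz1 and Lyz2 did, 2 lysozyme genes similar enough to share reads. Their summed RNA was 42.4 to 43.6 RPKM in brown adipocytes and 39.8 to 49.2 in brown preadipocytes, against 162 to 169 in white adipocytes and 62.7 to 65.6 in white preadipocytes, and Lyz2 had an RNA interaction of -1.39 (SE 0.15).

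Several contractile genes fell less in brown than in white cells. Of 25 tested, 13 had a positive and 2 a negative RPF interaction (median 0.66), which became 8 and 6 under either other scaling, and in RNA 6 were positive and 2 negative. Of all genes 20% were positive and 11.3% negative in RPF, and 21.6% and 13.7% in RNA. The contractile counts in RNA were thus near or below those shares. Acta2, the smooth muscle actin of activated fibroblasts, had 104 and 113 RPKM in brown adipocytes and 1201 and 1275 in brown preadipocytes, against 52.8 and 34.1 in white adipocytes and 2504 and 2262 in white preadipocytes, an interaction of 2.30 (SE 0.27, adjusted p = 8.05e-05) in RPF and 1.49 (SE 0.29) in RNA. Tpm1, a tropomyosin, had 1.74 (SE 0.27) and 1.33 (SE 0.23). Proliferation genes were nearly even in RPF (2 positive and 2 negative of 15) and leaned negative in RNA (7 against 1, median -0.48). In RNA, Top2a, the topoisomerase of dividing cells, had 3.65 and 3.77 RPKM in brown adipocytes and 43.1 and 41.0 in brown preadipocytes, against 12.6 and 9.68 in white adipocytes and 50.03 and 49.8 in white preadipocytes, so that more of it remained in white than in brown adipocytes, and an interaction of -1.33 (SE 0.25, adjusted p = 0.00183). Mki67, the proliferation marker Ki-67, had -2.75 (SE 0.46) in RPF and -0.81 (SE 0.29, adjusted p = 0.0497) in RNA. Interferon response genes were negative in RNA in 5 of 9 cases (median -0.68). B2m, the light chain of class I histocompatibility molecules, had 0.52 (SE 0.14) in RPF and -0.73 (SE 0.11) in RNA, both past the test and of opposite sign.

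Ribosomal protein genes had small negative RNA interactions, 20 of 48 for the large and 15 of 33 for the small subunit with none positive (medians -0.28 and -0.35). In RPF the large subunit had 12 negative and 3 positive genes and the small subunit 12 and 4. Quantile scaling gave 20 and 2 for the large and 18 and 2 for the small subunit, and removal of the coding length trend 18 and 1, and 16 and 3. Single genes such as Rps27, with -1.95 (SE 0.29) in RPF, are uncertain because ribosomal protein genes have near-identical pseudogenes that could take or lose reads. Translation factors had 15 positive and 4 negative of 47 in RPF (9 and 7 with quantile scaling) and 16 and 4 in RNA. Of all genes 20% were positive and 11.3% negative in RPF, and 21.6% and 13.7% in RNA. Eif5a, which carries hypusine and helps ribosomes through difficult stretches, rose in brown RPF and fell in white RPF (1.27, SE 0.18, adjusted p = 2.71e-04), while Pabpc1, the poly(A) binding protein, fell far more in brown RPF (-1.74, SE 0.22, adjusted p = 1.32e-04). Eif4a2, a helicase of initiation, was negative in RPF (-0.92, SE 0.31) and positive in RNA (1.10, SE 0.18).

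The 5 largest positive Eff interactions belonged to genes with a negative RNA interaction. Plin1 had an Eff interaction of 5.55 (SE 0.56, adjusted p = 6.21e-06), Gpd1 5.20 (SE 0.39, adjusted p = 5.08e-08), Car3 4.19 (SE 0.21, adjusted p = 1.11e-10), Adipoq 3.79 (SE 0.48, adjusted p = 4.36e-05) and Fabp4 3.01 (SE 0.20, adjusted p = 6.80e-09). Size in the 2 assays did not go together gene by gene, since Cfd, the most negative in RNA, had an Eff interaction of 0.60 (SE 0.31) that did not pass. Plin1 RPF had 1043 and 968 RPKM in brown adipocytes and 42.5 and 104 in brown preadipocytes, against 1197 and 1292 in white adipocytes and 74.7 and 75.3 in white preadipocytes, with no interaction past the test (-0.13, SE 0.39). Its Eff was 1.19 in brown adipocytes and 5.74 in brown preadipocytes, against 0.953 in white adipocytes and 186 in white preadipocytes. The outlying value is thus that of white preadipocytes, which had RPF of a gene with almost no RNA. Gpd1 shared it, with an Eff of 1.27 in white adipocytes against 241 in white preadipocytes, and so did Car3, with 3.23 against 187.

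Several genes named by the study had opposite signs of interaction in RPF and RNA. Fabp4, the fatty acid binding protein of fat cells, had an RNA interaction of -1.20 (SE 0.15, adjusted p = 1.25e-04) and an RPF interaction of 1.801 (SE 0.11, adjusted p = 8.95e-07). Its RNA was higher in brown than in white preadipocytes (345 and 358 RPKM against 127 and 115), and its RPF was lower (1192 and 1479 against 4104 and 4280.2). Lipe, the hormone-sensitive lipase, had 1.09 (SE 0.30) in RPF, -1.46 (SE 0.15) in RNA and 2.55 (SE 0.37, adjusted p = 1.47e-04) in Eff. Slc2a4, the glucose transporter Glut4, had 1.52 (SE 0.28) in RPF, -1.34 (SE 0.47) in RNA (0.22 with quantile scaling) and 2.86 (SE 0.61, adjusted p = 0.00448) in Eff, on 6 and 4 RPF reads in brown and 20 and 7 RNA reads in white preadipocytes. Acsl1, which activates fatty acids, had -0.36 (SE 0.18) in RPF, short of the test, -2.11 (SE 0.13) in RNA and 1.75 (SE 0.22, adjusted p = 4.91e-05) in Eff. Pnpla2, the first lipase of triglyceride breakdown (1.86, SE 0.19), and Cd36, a fatty acid carrier (2.15, SE 0.41), were positive in Eff as well, and Plin2, a droplet coat protein, was positive in Eff (1.505, SE 0.29) with an RNA interaction of -0.17 (SE 0.16). Of the 11 droplet and lipolysis genes 6 were positive in Eff and none negative (median 0.81), where 9.79% of all genes were positive and 5.78% negative.

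The day 0 level of these genes, taken as a percent of the day 5 level, shows the contrast between assays. Plin1 RPF at day 0 stood at 7.27% of its day 5 level in brown and 6.02% in white cells, while its RNA stood at 1.51% and 0.0308%. Gpd1 had 3.49% and 9.55% in RPF, and 0.645% and 0.0501% in RNA. For Fabp4 the values were 2.90% and 10.1% in RPF, and 0.750% and 0.326% in RNA. Over the 20 genes whose RNA rose most in each lineage, the median RPF percent was 4.07 and 4.87 in the brown preadipocyte libraries, beside an RNA percent of 1.60, and 7.70 and 8.42 in the white ones, beside 0.464. Single genes of these sets ranged from 1.95% to 73.9% in brown and from 3.16% to 234% in white RPF. When the median percent of day 5 RPF was subtracted from every gene's day 0 RPF, with no value let below the lowest of its library, between 18 and 30 genes of a library ended at that floor. The white preadipocyte values of Car3, Adipoq, Acsl1 and Cfd were at the floor in both libraries, that of Apoe in 1, those of Plin1 in both beside 1 brown library, and those of Slc2a4 in all 4 preadipocyte libraries. Those of Gpd1 and Fabp4 were at the floor in both brown preadipocyte libraries. The Eff interactions of Car3, Adipoq, Acsl1, Cfd, Apoe and Slc2a4 changed sign, with sizes set wholly or partly by the floor rather than measured. Slc2a4 also changed sign in RPF (-1.40). The RPF call of Lipe (1.10) and the Eff calls of Plin1 (1.76), Pnpla2 (1.56) and Cd36 (2.98) were lost, each with 1 or more libraries at the floor. Pparg, with none at the floor, lost its RPF call too (0.64). The origin of the day 0 RPF of adipocyte genes was not tested.

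**Figure D4:**
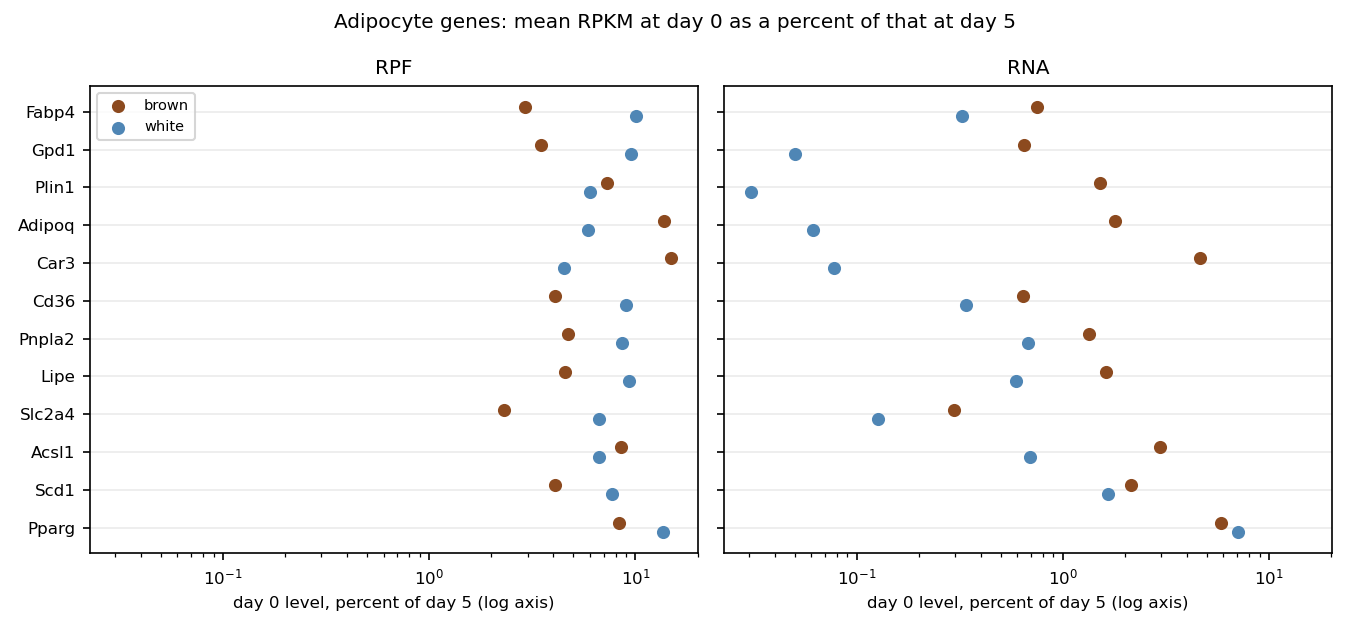
Day 0 level as a percent of the day 5 level (log axis) for 12 adipocyte genes in brown and white cells, in RPF and RNA. White RNA percents reach down to 0.0308% (Plin1) while white RPF percents of the same genes lie between 4.49% (Car3) and 13.6% (Pparg).

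Some secreted factors of adipocytes joined this set. In RPF, Angptl4, an inhibitor of lipoprotein lipase, had 598 and 724 RPKM in brown adipocytes and 40.2 and 29.9 in brown preadipocytes, against 337 and 376 in white adipocytes and 54.4 and 74.2 in white preadipocytes, with an interaction of 1.76 (SE 0.26, adjusted p = 4.03e-04) in RPF, -0.46 (SE 0.12) in RNA and 2.22 (SE 0.29) in Eff. Vegfb, a growth factor that acts on fatty acid transport in vessels, went the other way in translation, with 68.1 and 45.7 RPKM in brown adipocytes and 117 and 146 in brown preadipocytes, against 41.9 and 36.4 in white adipocytes and 18.2 and 22.6 in white preadipocytes. Its RNA rose in both lineages and had no interaction past the test (-0.18, SE 0.17), whereas its RPF fell in brown and rose in white cells (-2.17, SE 0.36, adjusted p = 7.99e-04). Clec2d, a lectin-like ligand of immune cells, had an Eff interaction of 2.93 (SE 0.50), but RPF far above its RNA in all groups, for example 359.7 and 346 RPKM of RPF beside 2.53 and 5.13 of RNA in brown adipocytes. Of the 12 adipokine genes 5 were positive and 1 negative in Eff (median 0.69), where 9.79% of all genes were positive and 5.78% negative.

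Fkbp1a, the protein bound by the drugs FK506 and rapamycin, changed in opposite directions in translation with little contrast in RNA. Its RPF had 208 and 235 RPKM in brown adipocytes and 114 and 113 in brown preadipocytes, against 134 and 158 in white adipocytes and 395 and 303 in white preadipocytes. Its RNA fell in both lineages, with an interaction of -0.29 (SE 0.15) that did not pass. The Eff interaction was 2.50 (SE 0.27, adjusted p = 1.14e-05), and Eff was 0.926 in brown adipocytes and 0.283 in brown preadipocytes, against 0.470 and 0.819 in white ones. Lpin1, a phosphatase of triglyceride synthesis and a coregulator of Pparg, had 1.496 (SE 0.37) in Eff and 1.90 (SE 0.32) in RPF.

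The respiratory complexes, the citric acid cycle and fatty acid oxidation had more positive genes in Eff than the 9.79% of all genes. In Eff 14 of 35 complex I subunits were positive (median 0.75 against 0.08 for all genes), 3 of 4 of complex II (1.13), 5 of 10 of complex III (0.76), 3 of 11 of cytochrome c oxidase (0.72), 8 of 16 of ATP synthase (0.75), 13 of 21 of the citric acid cycle (0.90) and 10 of 17 of fatty acid oxidation (1.00), with none negative in any of them. Other mitochondrial lists were nearer to all genes, with 6 of 44 ribosomal proteins positive (0.50), 3 of 23 import and chaperone genes (0.56), and 3 positive and 1 negative of 13 carriers (0.25). Branched-chain amino acid breakdown was not nearer, with 7 positive and 2 negative of 17 and the same median as complex I (0.75). Glycolysis had 11 of 16 positive (0.74) and the proteasome 9 of 31 (0.66). Quantile scaling lowered the positive counts to 4 for complex I (median 0.19), 2 for complex III, 1 for cytochrome c oxidase beside 2 negative, 5 for ATP synthase beside 1 negative, 7 for the citric acid cycle, 4 for fatty acid oxidation, 6 for glycolysis and 3 for the proteasome, and median-of-ratios scaling gave 9 for complex I, 1 for cytochrome c oxidase and 6 for glycolysis. The subtraction of day 5 RPF left 7 positive complex I subunits in Eff and 17 in RPF, and 12 positive citric acid cycle genes beside 1 negative in Eff and 16 beside 1 in RPF. Collagens had 8 of 13 negative (-0.90) and basement membrane genes 7 of 12 (-0.81), against 5.78% of all genes.

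The Eff interaction fell with the length of the coding sequence. Over the 4841 genes with a single coding length, Spearman's rho of length with the interaction was -0.43 in Eff, -0.29 in RPF and 0.14 in RNA, a description across genes that share the same libraries. The median Eff interaction was 0.52 in the 417 genes of up to 500 bases, 0.38 in the 985 of up to 1000, 0.29 in the 999 of up to 1500, -0.01 in the 1194 of up to 2500, -0.34 in the 930 of up to 5000 and -0.76 in the 316 longer ones. Short proteins such as respiratory subunits and long ones such as collagens lie at opposite ends of that scale, the tested complex I list having a median length of 447 bases and the collagen list 4441.5 bases. Removal of the trend by a smooth fit, chosen after the data were seen, left 7 positive complex I subunits in Eff, 4 positive and 1 negative for ATP synthase, 5 for the proteasome, 8 for glycolysis, 9 for fatty acid oxidation and 12 for the citric acid cycle, and left 1 negative collagen. For basement membrane genes it left none negative and 1 positive in Eff (median -0.11), and 5 negative in RPF. For collagens 11 were negative in RPF, against 12 before. In Eff the removal also left 1 positive and 1 negative gene of cytochrome c oxidase (median 0.12) and 4 positive of complex III (0.36). The large cytosolic ribosomal subunit then had 10 negative and 1 positive Eff genes, against 4 and 5 before. The small one had 11 negative and 0 positive, against 7 and 3. The part of coding length in single results was not tested further.

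**Figure D5:**
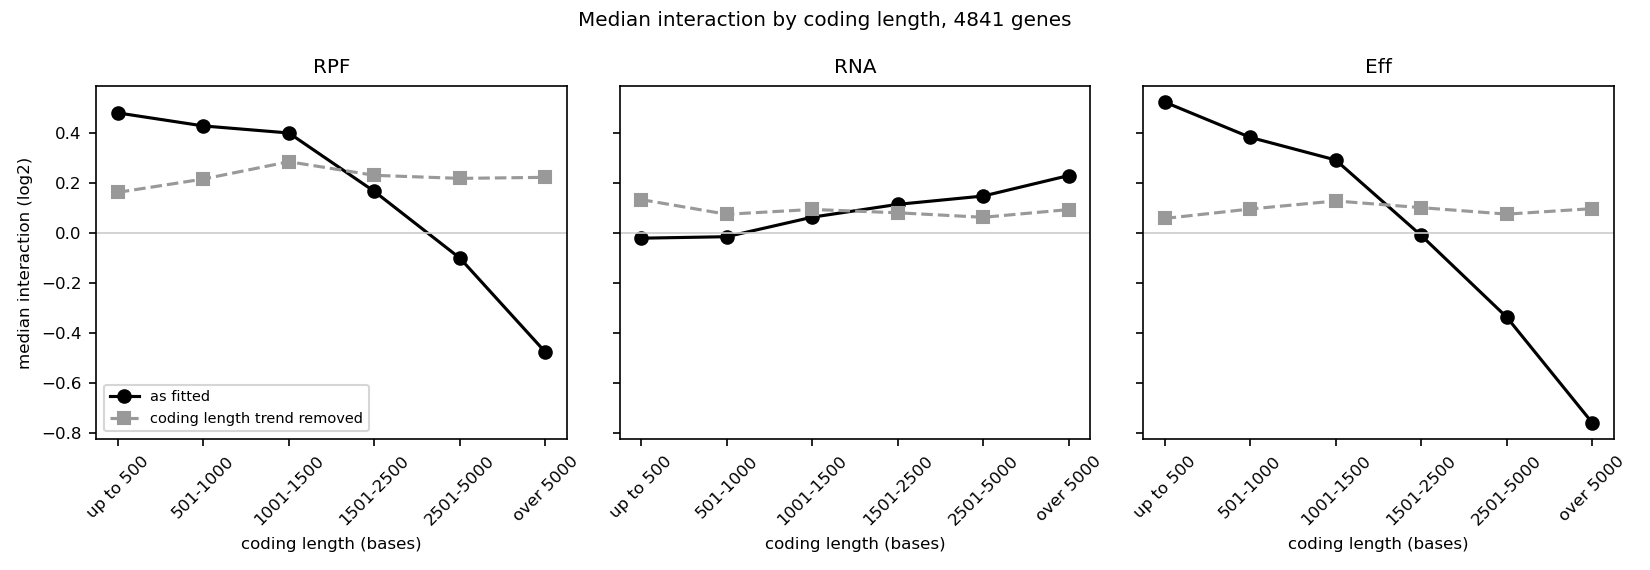
Median interaction (log2, y axis) by coding length bin (x axis, in bases) for 4841 genes in RPF, RNA and Eff, as fitted and after removal of the length trend. The Eff medians run from 0.52 in the shortest to -0.76 in the longest genes and lie between 0.06 and 0.13 after removal.

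RPF and RNA interactions were related but far from equal. Across genes they correlated at r = 0.50 (Spearman 0.49, 5035 genes that share libraries within each assay). Of the positive RPF genes 400 were positive in RNA too. That is 39.8% of the positive RPF genes, where 21.6% of all genes were positive in RNA. It is 36.8% of the positive RNA genes, where 20% of all genes were positive in RPF. Of the negative ones 283 were shared, 49.8% of the RPF and 41.1% of the RNA genes. Over all genes 13.7% were negative in RNA and 11.3% in RPF. A further 31 positive RPF genes were negative in RNA, Fabp4, Lipe and Slc2a4 among them, and 10 negative RPF genes were positive in RNA, such as Ccnl2 and Eif4a2. Of the Eff genes, 87.0% of the positive and 71.1% of the negative had an RPF interaction past the test in the same direction. Over all genes, 20% were positive and 11.3% negative in RPF. Eff is RPF over RNA from the same libraries, so part of this overlap is built in.

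Genes whose direction itself differed between lineages were few. Over all genes, RPF rose in 26% and fell in 34.7% during brown adipogenesis, and rose in 16.7% and fell in 36.1% during white adipogenesis. For RNA the brown cultures had 29.7% rising and 44.9% falling, against 27.5% and 53.4% for the white ones. For Eff the brown cultures had 16.1% rising and 19.9% falling, against 7.94% and 16.3% for the white ones. In RPF 116 genes rose in brown and fell in white cells and 28 fell in brown and rose in white cells, in RNA 73 and 35, and in Eff 50 and 8. Cfd had the largest such RPF interaction, with 309.8 and 349.7 RPKM in brown adipocytes and 477 and 496 in brown preadipocytes, against 1116 and 1264 in white adipocytes and 43.0 and 37.5 in white preadipocytes and -5.45 (SE 0.18, adjusted p = 1.12e-09), and its RNA nevertheless rose in both lineages. Pcnx, the mammalian pecanex, fell in brown and rose in white RPF (-2.94, SE 0.42) while its RNA rose in both. Among RNAs, Adamts15, a protease of matrix proteoglycans, had 7.88 and 7.19 RPKM in brown adipocytes and 14.4 and 14.0 in brown preadipocytes, against 34.8 and 31.1 in white adipocytes and 12.2 and 13.2 in white preadipocytes, and an interaction of -2.29 (SE 0.20, adjusted p = 8.18e-06), the gap being at day 5. Tmeff2, a membrane protein with follistatin domains, had -2.25 (SE 0.34), with brown cells above white ones at day 0 and below them at day 5. Ddx3y, an RNA helicase on the Y chromosome, had 26.5 and 26.3 RPKM in brown adipocytes and 18.2 and 15.5 in brown preadipocytes, against 8.86 and 4.80 in white adipocytes and 17.0 and 16.6 in white preadipocytes, and an interaction of 2.01 (SE 0.33, adjusted p = 8.03e-04). Its RPF interaction was 0.50 (SE 0.35), short of the test, and white adipocyte RNA was again the group that stood low.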

How the data were processed

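Ribosome profiling and RNA-seq libraries of brown and subcutaneous white cultures at day 5 and day 0 were analysed, 2 libraries for each assay and group. The deposited RPKM values (reads over kilobases of coding sequence and over the library's mapped reads) were made by the authors from reads trimmed with cutadapt 1.8.3 and mapped, at 1 site and without mismatch, to each gene's most abundant isoform (TopHat2 2.0.9 and Bowtie 1.0.0 per the submitters' processing notes). The genome build was not given in the sources used here. Genes above 0 in all 24 libraries were kept, since rows with blanks (Ucp1 for example) seemed to hold values outside their own columns, and log2(RPKM) was taken with no pseudocount (0). Limma 3.58.1 in R 4.3.3 fitted a mean per group over all groups of an assay, so that the tissue libraries of brown and epididymal white fat added only to the variance, and for Eff a single model over both assays. Benjamini-Hochberg adjustment ran over all 5035 genes, with a threshold of 0.05.

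Whole reads were recovered from the RPKM steps for 4767 genes in all libraries, with 98.6% to 98.9% of values whole within 0.05, and gave the read numbers. RPKM from few reads is imprecise. Named genes followed a rule: those named by the study, per assay the 8 most positive, the 8 most negative and the 8 largest with opposite changes in the lineages, and per list up to 4 with the smallest adjusted p. The rule gives 279 genes, of which part is printed and some are not reported here. The genes and lists were chosen with earlier results of these data known. Promoters were taken from RefSeq (GRCm38.p6). Alternatives covered scaling, filters, a pseudocount of 1, single libraries, the replicate block, subtraction of day 5 RPF and coding length. The code was checked on simulated data. Python 3.11.15, numpy 2.4.6, pandas 2.3.3 and matplotlib 3.10.9 were used.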

Additional observations from a re-analysis of the deposited data

Results flagged for a closer look

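The test of the interaction is itself a test of a difference between lineages, and it singled out 1573 genes in RPF, 1775 in RNA and 784 in Eff. Within them, the genes that changed in opposite directions numbered 116 (rose in brown, fell in white) and 28 (fell in brown, rose in white) in RPF, 73 and 35 in RNA, and 50 and 8 in Eff.

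Opposite changes with the largest RPF interactions, each past limma's test of the difference, included those of Cfd (-5.45), Lum (-3.81), Ltbp4 (-3.17), Pcnx (-2.94), Col15a1 (-2.90), Ifrd1 (2.87) and Lgals3 (2.76). Cfd, Pcnx and the matrix genes fell in brown and rose in white RPF, and Ifrd1 and Lgals3 did the reverse. In RNA they belonged to Lum (-3.50), Ogt (2.55), Clk1 (2.51), Adamts15 (-2.29), Tmeff2 (-2.25), Prpf4b (2.01) and Ddx3y (2.01). The 4 positive RNA genes shared low values in both white adipocyte libraries. In Eff they belonged to Ccnl2 (-3.10), Fkbp1a (2.50), Kdelc2 (-2.41) and Ogt (-2.31). With 2 libraries a group no single library could be tested as an outlier.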

How the results depend on the processing

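Of 6282 values for the 91 named genes under other settings, 6029 kept their side of the threshold, with no change of sign in a called value. Of the rest, 161 lost the call, 83 gained it and 9 changed sign with a call in either fit, Cfd, Plin1 and Slc2a4 among them. Changes of sign between values that passed in neither fit are counted among the 6029. The counts of genes moved by more than 1.5 times under some settings. With quantile scaling 664 genes were positive in RPF and 266 in Eff. With the culture libraries alone the totals were 1334 in RPF, 2516 in RNA and 832 in Eff, and 1036 were negative in RNA. With the coding length trend removed Eff gave 475 genes, 320 positive and 155 negative. With 1 library left out the totals ran from 1146 to 1602 in RPF (722 to 1065 positive, 422 to 537 negative), from 1195 to 1473 in RNA (720 to 929, 475 to 577) and from 485 to 1028 in Eff (330 to 681, 155 to 372). Subtraction of day 5 RPF reversed the RPF interaction of Slc2a4 (-1.40) and the Eff interactions of Acsl1 (-4.06), Slc2a4 (-0.054), Cfd (-4.98), Car3 (-4.05), Adipoq (-3.18) and Apoe (-3.66). Each of these genes had 1 or more preadipocyte libraries set to the floor of the subtraction, so the sizes depend on that floor. The cause of these changes of sign was not tested. With 1 library left out Plin1 RPF ran from -0.78 (without the first RPF library of brown preadipocytes) to 0.51 (without the second), and Slc2a4 RNA became 0.22 with quantile scaling, and the cause was not tested. Whether the replicate numbers pair the libraries is not given in the labels. Correlations of replicate deviations between groups ran from -0.23 to 0.36. They cannot settle it, because each group gives a single replicate difference. A replicate block gave 987 positive and 552 negative genes in RPF, 1082 and 679 in RNA, and 494 and 307 in Eff. Few RPF reads in brown preadipocytes limit the precision of short and weakly expressed genes.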
